A study of Mus musculus with 12 samples.

Results

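The genes of the cytosolic ribosomal proteins were examined in messenger RNA of mouse colonic mucosa, with 84 protein-coding genes taken from 38087 gene rows that have an Ensembl identifier. They were chosen by symbol alone, as genes named Rpl, Rplp or Rps with a number, with the S6 kinase genes left out, and no measured value entered the choice. The set holds 51 genes of the large ribosomal subunit and 33 of the small subunit, and 8 of the 84 are paralogs of another gene in the set. The libraries were 6 from wild type mice and 6 from mice of the Sgo1-/+ genotype, which have an altered allele of the gene for shugoshin 1, a guardian of centromeric cohesion. Wild type animals were treated like the mutants: every mouse received the colon carcinogen azoxymethane at 4 mg/kg, 2 times a week from 8 to 12 weeks of age, and colonic mucosa was taken at 9 months. The series asks how chromosome instability acts on the colon. Nothing in the labels states that the samples came from separate mice, and p-values here describe only the spread between these samples.

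Each ribosome carries one copy of nearly every ribosomal protein, and the cell matches their supply through growth signals acting on translation as well as through transcription. Many of their messages begin with a C followed by a run of pyrimidines, the terminal oligopyrimidine or TOP motif, through which mTOR signalling and the protein LARP1 control their translation. In the colon, demand for new ribosomes is highest among dividing cells of the crypt. Ribosomal protein messages are short and abundant, and mammalian genomes hold many processed copies of them, so a read from such a message often matches several places in the genome.

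The deposited counts in each library, over rows with an Ensembl identifier, ran from 5414437 to 9937114. The Sgo1 gene, listed as Sgol1, had a fitted log2 change of -0.67 ± 0.32 (SE) in Sgo1-/+ against wild type (edgeR adjusted p = 0.551). Markers of colonic epithelium were present in every library, with 8 of 8 tested and a summed level between 5727 and 7812 CPM, counts scaled to a common library size, in wild type and between 6218 and 7070.1 CPM in Sgo1-/+ mucosa. Rows of 11 annotated genes that resemble mitochondrial transcripts took part of each library. The 3 libraries richest in them were wild type replicate 3 (42.6%), Sgo1-/+ replicate 3 (41.7%) and wild type replicate 5 (40.7%), and the other 9 lay between 11.6% and 24.6%. Such differences in composition move any level that is scaled by the library total, so the class is given on 3 scales.

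The summed level of the 84 genes depended on the scale. Scaled by all counts, wild type libraries held 9313, 12019 and 15055 CPM (lowest, median and highest) and Sgo1-/+ libraries 10441, 16499 and 18561 CPM. The means were 12109 ± 2264 CPM in wild type mucosa and 15697 ± 2924 CPM in Sgo1-/+ mucosa (SD, 6 libraries per genotype), a ratio of 1.296. The groups overlapped: Sgo1-/+ replicate 3 lay below 5 of the wild type libraries, and replicate 1, at 14511 CPM, lay below the highest of them. With the mitochondrial-like rows left out of the total, the means were 16852 ± 1549 CPM and 19527 ± 1770 CPM. The difference fell to 2675 CPM and the ratio to 1.159, and both SDs fell as well. On this scale only Sgo1-/+ replicate 1, at 17040 CPM, lay below the highest wild type library, at 17884 CPM. With TMM factors, which set most genes to no average change, the sums were 13552 ± 1731 CPM in wild type mucosa and 13869.9 ± 1316 CPM in Sgo1-/+ mucosa, a ratio of 1.02 and a difference smaller than either SD. The mitochondrial-like share moved with the first of these differences, at 28.2% ± 10.9 for wild type against 19.9% ± 11.3 for Sgo1-/+, and its part in it was not tested beyond the second scale. Markers of several cell types also differed in median between the genotypes, each with libraries that overlapped and no marker at 0 in every library. For crypt base and cycling cells (7 of 7 markers tested) the summed level was 125, 149.8 and 259 CPM in wild type mucosa and 150.5, 233 and 269 CPM in Sgo1-/+ mucosa (lowest, median and highest, TMM scaled). Absorptive colonocyte markers (7 of 7 tested) stood at 7649, 12330.5 and 14606 CPM against 7101, 9024 and 12216 CPM, and plasma and B cell markers (4 of 4) at 146, 182 and 304 CPM against 83.6, 125 and 192 CPM. Adipocyte markers (3 of 5 tested) stood at 2.02, 6.49 and 60.1 CPM against 2.04, 67.6 and 165 CPM, and those of enteric neurons and glia (2 of 3) at 6.49, 20.6 and 66.4 CPM against 3.81, 6.06 and 43.9 CPM. The part of these cells in the class level was not tested. In such bulk samples fewer cells of a type and less RNA per cell cannot be told apart. All further levels are TMM-scaled CPM.

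**Figure D1:**
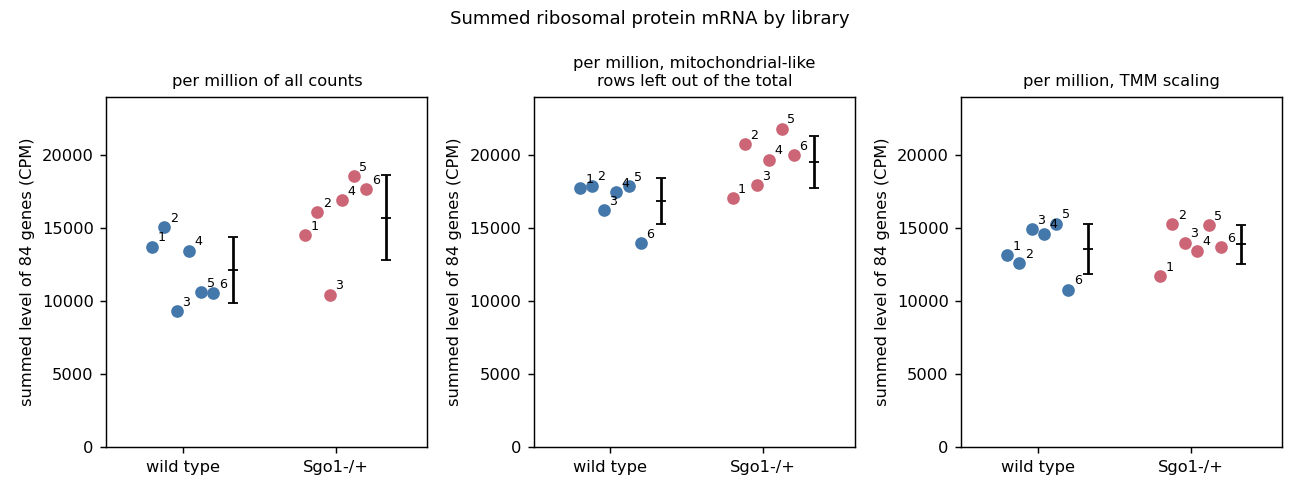
Summed level of the 84 ribosomal protein genes in each library on 3 scales (y axis, CPM; points are libraries numbered by replicate, bars are mean ± SD, n = 6). The group means differ by 3588 CPM when scaled by all counts, by 2675 CPM with the mitochondrial-like rows left out of the total and by 318 CPM with TMM scaling.

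The balance of the subunits was nearly the same in both genotypes. Large subunit genes gave 63.0% ± 0.833 of the class in wild type libraries and 62.5% ± 0.672 in Sgo1-/+ ones (SD, 6 libraries per genotype), a difference of less than 1 SD. The 10 most abundant genes gave 36.0% of the class counts.

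Of the 84 genes, 79 passed the filter on low counts and were tested. No ribosomal protein gene passed the test between the genotypes: edgeR called 0 at an adjusted p under 0.05, and 0 of all 13889 genes tested (0% called). At an unadjusted p under 0.05 it also found 0 of the 79, beside 9.04% of all genes tested. DESeq2 called 0 of the 79 and 30 of all genes (0.216%), and limma-voom called 0 genes. With library totals in place of TMM factors, a scale on which 83.7% of all genes lay above 0 with a median of 0.31, 16 of the 79 had an unadjusted edgeR p under 0.05, all of them higher, beside 12.2% of all genes. Over the class the smallest adjusted p was 0.553. The fitted values were small: 77 of 79 genes lay within 0.3 log2 units of no change, a range that held 70.1% of all genes tested. With a fitted value above 0 there were 54 genes, and 25 were below it, beside 49.0% of all genes tested above 0. The median log2 change was 0.073, beside -0.0057 over all genes tested. For the small subunit 24 of 31 tested genes were above 0 with a median of 0.088, and for the large subunit 30 of 48 were above 0 with a median of 0.052. In no gene did the CPM values of the genotypes separate without overlap, beside 0.209% of all genes with every Sgo1-/+ library higher and 0.130% with every one lower. The genes varied less between libraries than the median gene, with a median SD of log2 CPM of 0.256 in wild type and 0.282 in Sgo1-/+, beside 0.355 and 0.315 over all genes tested. Among the 13889 genes tested, 1047 had a mean at or above that of the median ribosomal protein gene (124 CPM). Neither the SDs nor the share within 0.3 log2 units were compared at matched levels, so the part of abundance in them was not tested.

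**Figure D2:**
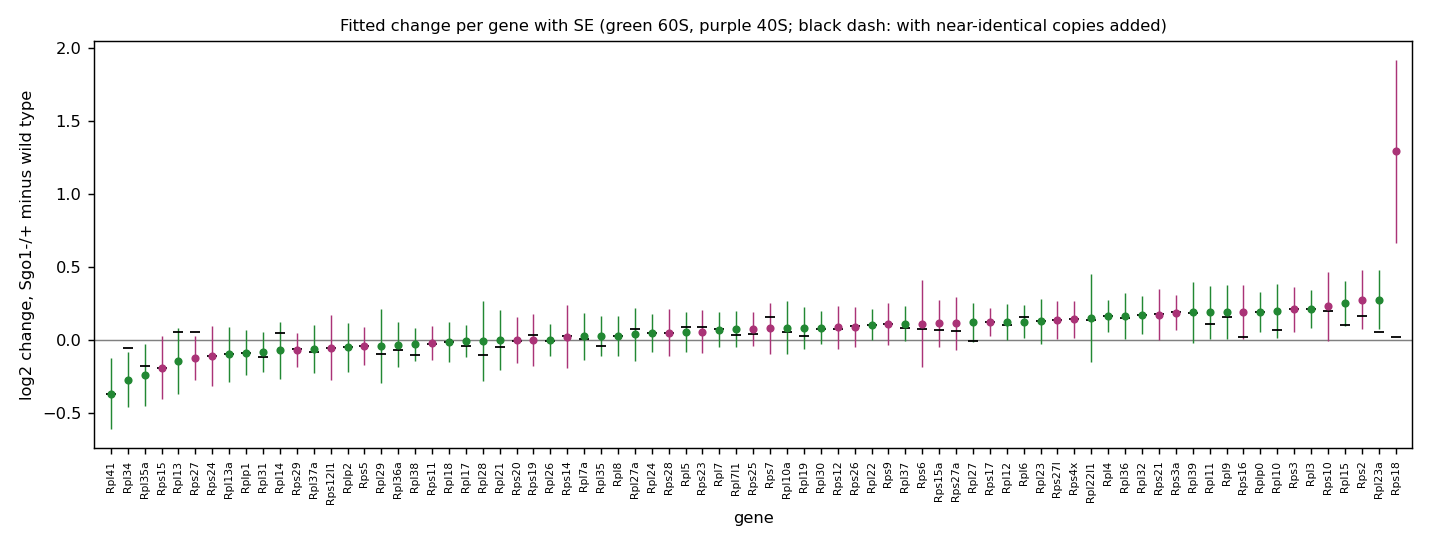
Fitted log2 change of 77 of the 79 tested genes in Sgo1-/+ against wild type (y axis, with its SE from edgeR), ordered from lowest to highest along the x axis, in green for large and purple for small subunit genes. Black dashes give the value after the counts of near-identical copies were added. The genes lie between -0.37 for Rpl41 and 0.28 for Rpl23a except Rps18 at 1.29, whose dash lies at 0.021.

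Rps18 encodes a protein of the head of the small subunit, next to the site where the subunits meet, and had the largest fitted value and the smallest p of the class. Its gene lies at chr17:33951999-33956001 on the minus strand (mm10). Its start, as RefSeq lists it on GRCm38.p6 (chr17:33955651-33955680), carries a TOP motif, shown here because the Rps18 row is the one that stood apart. The start site is base 16 of 30 and the pyrimidine run from it is in capitals:
Rps18: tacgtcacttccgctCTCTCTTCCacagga

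The Rps18 row stood at 5.02, 8.65 and 13.1 CPM (lowest, median and highest) in wild type and at 6.80, 9.21 and 82.5 CPM in Sgo1-/+ mucosa. A single library, Sgo1-/+ replicate 6, held the value of 82.5 CPM, and the other 5 Sgo1-/+ libraries lay between 6.80 and 9.83 CPM, within the wild type range. The fitted log2 change was 1.29 ± 0.63 (SE; edgeR unadjusted p = 0.0585, adjusted p = 0.553). Without Sgo1-/+ replicate 6 it was 0.0086.

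The Rps18 row held only 16.0% of the counts that fall on Rps18 and its near-identical copies together, from 4.76% to 53.2% by library. The most counted of those copies were Gm17352, at chr13:97760130-97760588, and Gm10260, at chr8:107262817-107263248, both listed as protein-coding. An alignment of the Rps18 and Gm17352 transcripts in GENCODE M21 matched 540 of 545 bases, with 4 differences in 456 coding bases, and Gm10260 matched 453 of 456. The stretches of 60 coding bases with the most differences are shown because they bear on how a short read can be assigned. Capitals mark the bases that differ within each pair:
Rps18, coding bases 312 to 371: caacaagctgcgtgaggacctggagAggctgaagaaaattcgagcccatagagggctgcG
Gm17352, the same stretch: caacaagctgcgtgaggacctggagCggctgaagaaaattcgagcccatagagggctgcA
Rps18, coding bases 122 to 181: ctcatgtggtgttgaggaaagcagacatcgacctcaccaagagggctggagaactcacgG
Gm10260, the same stretch: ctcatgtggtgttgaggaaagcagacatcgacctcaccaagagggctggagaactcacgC

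Gm17352 stood at 48.8 to 79.6 CPM in wild type mucosa and at 49.6 to 83.0 CPM in 5 Sgo1-/+ libraries, and was listed at 0 in Sgo1-/+ replicate 4. With all copies added to it, the Rps18 family stood at 74.9 to 137 CPM in wild type mucosa and at 49.3 to 155 CPM in Sgo1-/+ mucosa. Replicate 4, with no counts on Gm17352, gave the lowest of these sums and replicate 6 the highest. The log2 change of the summed family was 0.021 ± 0.23 (SE; edgeR unadjusted p = 0.930).

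Copies with counts of their own were common in the class. A search of 29324 other gene rows against the transcripts of the 84 genes, at 80% coverage and 90% identity, found 674 copy rows for 75 genes, and 573 of those rows held counts. The 84 genes were not searched as copies of each other. Rps12l1, identical to Rps12 over 399 aligned bases, is therefore not in the Rps12 family. In 17 genes the row held under 50% of the family's counts, and in 5 it held under 10%. Those 5 were Rps13 at 2.25%, Rps6 at 4.59%, Rpl10a at 8.16%, Rpl27a at 8.18% and Rpl10 at 9.72%. Rps13, a core protein of the small subunit, did not pass the filter, with 2.96 to 18.7 counts per library on its row, and the part of its copies in that was not tested. With all copies added, the median log2 change of the class was 0.054.

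Rps6, the small subunit protein that S6 kinase phosphorylates downstream of mTOR, held few of its family's counts on its own row. Its row stood at 6.66, 8.87 and 17.1 CPM in wild type mucosa and at 6.90, 8.93 and 21.2 CPM in Sgo1-/+ mucosa, with wild type replicate 4 and Sgo1-/+ replicate 2 well above the others. The pseudogene row Rps6-ps4, at chr2:75191034-75191854, stood at 205 ± 22.2 CPM in wild type mucosa and 217 ± 29.9 CPM in Sgo1-/+ mucosa. Over 750 aligned bases, 747 of them coding, the pair was identical, so that the sequence alone cannot place a read within them. The row's log2 change of 0.11 ± 0.30 (SE) ran from -0.20 without Sgo1-/+ replicate 2 to 0.35 without wild type replicate 4. The summed family, at 171 to 243 CPM in wild type mucosa and 206 to 299 CPM in Sgo1-/+ mucosa, had a log2 change of 0.075 ± 0.12 (edgeR unadjusted p = 0.547). The shared first 60 coding bases and the TOP motif at the RefSeq start of Rps6 (chr4:86857353-86857382, minus strand, pyrimidine run in capitals) are shown as an example of a message whose own row holds few of its family's counts:
Rps6 and Rps6-ps4, coding bases 1 to 60: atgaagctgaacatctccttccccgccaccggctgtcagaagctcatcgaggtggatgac
Rps6 start: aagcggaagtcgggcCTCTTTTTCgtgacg

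Rps2, a protein of the mRNA entry side of the small subunit, varied on its row and on a copy in opposite directions between a pair of Sgo1-/+ libraries, chosen after their values were seen. Rps2 stood at 279 CPM in Sgo1-/+ replicate 1 and at 136 CPM in replicate 5, while its copy Rps2-ps13 stood at 47.7 and 206 CPM in those libraries. The summed Rps2 family was at 371 and 423 CPM in them, and its log2 change was 0.16 ± 0.12 (SE; edgeR unadjusted p = 0.186), beside 0.28 ± 0.20 for the row alone. Whether reads moved between the rows was not tested. Rpl11, Rpl15 and Rpl10 held 21.3%, 22.5% and 9.72% of their families' counts.

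**Figure D3:**
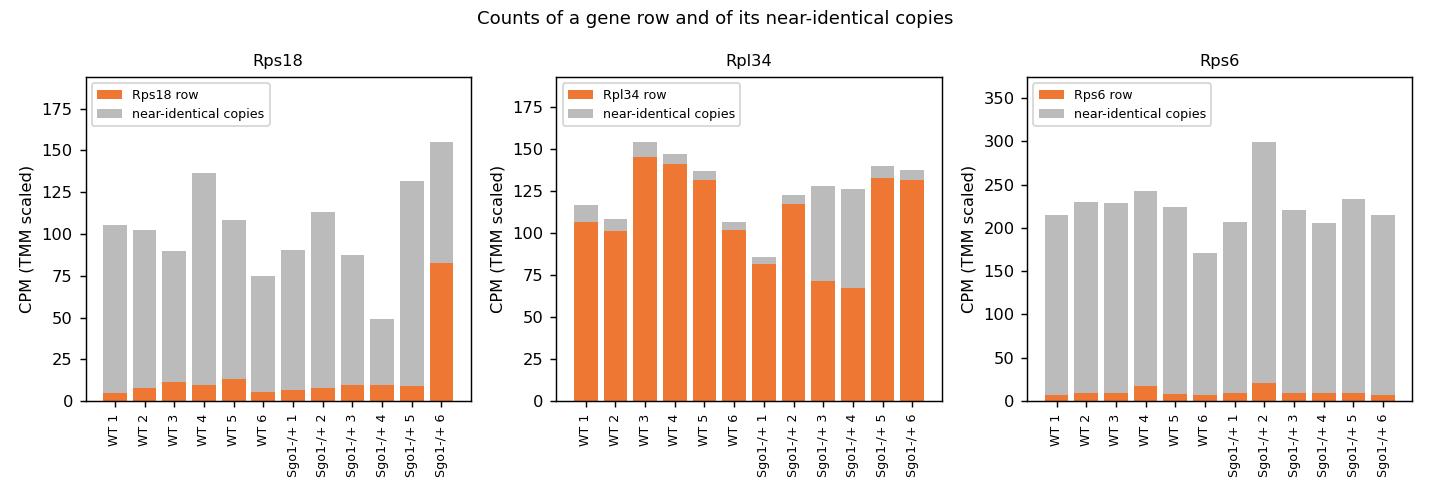
CPM of the gene's own row (orange) and of its near-identical copies (grey) stacked for each of the 12 libraries (x axis), for Rps18, Rpl34 and Rps6. The Rps18 row reaches 82.5 CPM only in Sgo1-/+ replicate 6, the copies of Rpl34 rise in Sgo1-/+ replicates 3 and 4, and the Rps6 row is a small part of its family throughout.

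The genes with the next smallest p among those with higher fitted values were Rpl3, Rpl15, Rps3a and Rpl4. Rpl3, which lies near the peptidyl transferase centre, stood at 168, 214 and 234 CPM in wild type (lowest, median and highest) and at 187, 257 and 272 CPM in Sgo1-/+ mucosa. Sgo1-/+ replicates 1 and 3 lay inside the wild type range and the other 4 above it, and the log2 change was 0.21 ± 0.13 (SE; edgeR adjusted p = 0.632). Rpl4, which lines the exit tunnel of the nascent chain, stood at 538, 622 and 657 CPM in wild type mucosa and at 582, 705 and 790.4 CPM in Sgo1-/+ mucosa, with the same 4 Sgo1-/+ libraries above every wild type one (0.16 ± 0.11; edgeR adjusted p = 0.666). Rps3a, a protein of the small subunit platform, stood at 209, 266 and 332 CPM in wild type mucosa and at 269, 320.5 and 346 CPM in Sgo1-/+ mucosa. Only Sgo1-/+ replicate 5 exceeded the highest wild type library in Rps3a, whose log2 change was 0.19 ± 0.12 (edgeR adjusted p = 0.654). Rpl15, a large subunit protein, stood at 14.5, 18.8 and 23.3 CPM in wild type mucosa and at 17.6, 21.1 and 26.5 CPM in Sgo1-/+ mucosa, and its log2 change of 0.25 ± 0.15 (edgeR adjusted p = 0.636) was 0.11 with its copies added.

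Among genes with lower fitted values some of the smallest p belonged to Rpl41, Rpl34, Rpl35a and Rps15, of which all but Rpl41 turned positive with library totals in place of TMM factors (0.11, 0.15 and 0.15). Rpl41 encodes a very short basic peptide and stood at 382, 534 and 909 CPM in wild type mucosa and at 358, 439 and 737 CPM in Sgo1-/+ mucosa. Its 3 highest libraries were wild type replicates 3 and 5 and Sgo1-/+ replicate 3, the ones richest in mitochondrial-like counts, and its log2 change was -0.37 ± 0.25 (SE; edgeR adjusted p = 0.665). Rps15, a protein of the small subunit head, was also highest in those 3 libraries, at 522, 555 and 481 CPM, and had a log2 change of -0.19 ± 0.22 (edgeR adjusted p = 0.796).

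Rpl34, a large subunit protein, stood at 102, 119 and 145 CPM in wild type mucosa and at 67.3, 99.5 and 133 CPM in Sgo1-/+ mucosa. Sgo1-/+ replicates 3 and 4, at 71.6 and 67.3 CPM, lay below every wild type library, as did replicate 1 at 81.6 CPM. In replicates 3 and 4 alone the copy Rpl34-ps1 (chr6:71124577-71124999) stood at 49.999 and 50.4 CPM, against 4.0 to 8.9 CPM in the other 10 libraries. Its transcript matched that of Rpl34 at 352 of 354 bases. One of the differences lies in this stretch, with the differing base in capitals:
Rpl34, coding bases 73 to 132: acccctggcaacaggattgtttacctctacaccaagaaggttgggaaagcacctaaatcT
Rpl34-ps1, the same stretch: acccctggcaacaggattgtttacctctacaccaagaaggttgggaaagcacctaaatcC

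The log2 change of Rpl34 was -0.27 ± 0.19 (SE; edgeR adjusted p = 0.676) for the row and -0.056 with the copies added. Rpl35a moved in the same libraries: its row held 58.4 CPM in replicate 3 and 72.8 CPM in replicate 4 of Sgo1-/+, and 102 to 159 CPM in the other 10, while Rpl35a-ps2 was at 14.0 and 13.5 CPM there against 3.8 to 7.2 CPM elsewhere. The log2 change of Rpl35a was -0.24 ± 0.22 (edgeR adjusted p = 0.741) and -0.18 with its copies added.

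The stalk of the large subunit recruits the elongation factors and is built from the scaffold protein Rplp0 and pairs of Rplp1 and Rplp2. Rplp0 stood at 482, 649 and 728 CPM in wild type mucosa and at 571, 734 and 859 CPM in Sgo1-/+ mucosa, with a log2 change of 0.19 ± 0.14 (SE; edgeR adjusted p = 0.683). Rplp1 stood at 279, 390.3 and 446 CPM against 244, 361 and 450 CPM (-0.086 ± 0.16), and Rplp2 at 156, 199 and 254 CPM against 132, 194 and 250.2 CPM (-0.049 ± 0.17). The genotypes overlapped in all 3.

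Rpl5, Rpl11 and Rpl23 bind MDM2, the ubiquitin ligase of p53, when ribosome assembly is disturbed, Rpl5 and Rpl11 together with 5S rRNA. Rpl5 was at 177 ± 29.97 CPM in wild type mucosa and 184 ± 28.0 CPM in Sgo1-/+ mucosa (SD, 6 libraries per genotype), and its log2 change was 0.056 ± 0.14. Rpl11 was at 29.9 ± 5.63 and 34.1 ± 8.56 CPM, with a change of 0.19 ± 0.18. Rpl23 was at 454 ± 60.1 and 496 ± 113 CPM, with a change of 0.13 ± 0.15. Their edgeR adjusted p-values were 0.913, 0.754 and 0.811.

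Levels between genes were compared per kb of the longest annotated transcript, which for some genes is a transcript with a retained intron, so the order is approximate. Rpl41 was highest, at 888 ± 321 CPM per kb in wild type and 688 ± 211 in Sgo1-/+ (SD, 6 libraries per genotype). Rplp1 followed at 759 ± 128 and 715 ± 137, Rps15 at 682 ± 210.3 and 597 ± 158, Rplp0 at 458 ± 63.6 and 523 ± 80.7, and Rpl23 at 429 ± 56.7 and 469 ± 106. The ranges of mean ± SD overlapped among Rpl41, Rplp1 and Rps15, and between Rplp0 and Rpl23. These SDs are between libraries that all genes share, so the overlap does not show whether the genes differ within libraries. At the other end Rpl10l, a paralog known from the testis, was listed at 0 counts in every library. Rpl39l, also known from the testis, had at most 1.5 counts in a library, and Rpl3l, the form of Rpl3 in striated muscle, had 0 to 4 counts. Rps4y2, a single-exon relative of Rps4x, reached 0 to 42 counts and was not tested either.

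The 4 paralogs with enough counts to compare stood at different levels relative to their partners. Rps27l, a target of p53, was at 70.2 ± 14.0 CPM per kb in wild type and 77.4 ± 8.03 in Sgo1-/+, and Rps27 at 44.7 ± 8.81 and 41.1 ± 7.13. The Rps27 row held 20.0% of its family's counts, and its copy Gm9846 stood at 109 ± 16.4 CPM in wild type mucosa and 117 ± 26.0 CPM in Sgo1-/+ mucosa, so the order of the pair is uncertain. The coding sequences of Rps27 and Rps27l agreed at 79.1% of 249 aligned bases. At the listed RefSeq start a TOP run (capitals) was present in Rps27 (chr3:90213634-90213663, minus strand) but not in Rps27l (chr9:66946071-66946100, plus strand). A C with 4 further C or T bases does begin within 5 bases of the listed Rps27l start, so the contrast depends on the base listed:
Rps27 start: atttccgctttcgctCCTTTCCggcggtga
Rps27l start: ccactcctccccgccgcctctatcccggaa

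Rpl22 was at 65.6 ± 7.08 CPM per kb in wild type and 70.5 ± 7.85 in Sgo1-/+, and Rpl22l1, its paralog with 75.9% identical coding bases, at 8.84 ± 3.17 and 9.72 ± 4.17. Rpl22l1 was among the more variable genes, at 10.9 to 26.9 CPM in wild type mucosa and 10.2 to 27.2 CPM in Sgo1-/+ mucosa, with a log2 change of 0.15 ± 0.30 (SE; edgeR adjusted p = 0.892). Rpl7l1, which acts in assembly of the large subunit, was at 11.8 ± 1.94 and 12.4 ± 1.51 CPM per kb, and Rpl7 at 264 ± 24.0 and 277 ± 39.6.

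Rps12 and Rps12l1 could not be told apart over the aligned sequence. Their annotated transcripts were identical over 399 aligned bases, 396 of them coding, of which the first 60 are shown:
Rps12 and Rps12l1, coding bases 1 to 60: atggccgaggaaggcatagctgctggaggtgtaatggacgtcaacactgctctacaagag

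The Rps12 row (chr10:23785211-23787195) was at 42.7 ± 8.37 CPM in wild type mucosa and 45.4 ± 7.15 CPM in Sgo1-/+ mucosa, and the Rps12l1 row (chr7:56013933-56014428) at 153 ± 41.3 and 148 ± 51.8 CPM. The levels of both rows are therefore uncertain. The rows differed in how they varied, since the mean r of log2 CPM with the other genes was 0.52 for Rps12 and 0.094 for Rps12l1. The part of how reads were divided between the rows in this difference was not tested.

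The genes varied together across libraries, but loosely. Over the 3081 pairs of tested genes the median Pearson r of log2 CPM across the 12 libraries was 0.38, and 80.3% of pairs were above 0. Over all pairs of the 13889 genes tested the median r was -0.00057, and 49.95% were above 0. Among the 1047 genes tested whose mean was at or above that of the median ribosomal protein gene (124 CPM), the median r was 0.098 with 56.6% of pairs above 0, and for the 40 ribosomal protein genes in that range it was 0.43 with 81.2%. These values are a description, since all pairs share the same libraries, depths and scaling. With copies added to each family the median r was 0.47, and in 49 of the 73 tested genes that have counted copies the SD between libraries fell. Adding copies also makes the summed counts larger, and the part of that in these changes was not tested. Rpl12 and Rps12 were among the genes with the highest mean r with the other genes, both at 0.52, and Rpl21, Rpl38 and Rpl15 the lowest, at 0.0029, 0.037 and 0.054. Wild type replicate 6 and Sgo1-/+ replicate 1 were the low libraries, with median deviations of -0.34 and -0.21 log2 from the gene means, and Sgo1-/+ replicate 5 was the high one at 0.23.

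The make-up of the class also differed in the 3 libraries richest in mitochondrial-like counts, as did many genes outside it. In TMM-scaled CPM 11 of the 79 tested genes were higher in each of these libraries than in any of the other 9, beside 10.2% of all genes tested, and 0 of the 79 were lower in each, beside 8.90% of all genes. Each gene's share of the class counts does not depend on scaling, but a rise in one share lowers the rest, so shares describe only the balance within the class. In 9 genes the share was higher in each of the 3 libraries than in any of the other 9. Rpl41 gave 5.26% to 6.08% of class counts there, against 2.66% to 4.29% elsewhere. Rps15 gave 3.43% to 3.63% against 1.93% to 2.79%, and Rps24, a small subunit gene mutated in some patients with Diamond-Blackfan anaemia, 4.42% to 5.67% against 2.97% to 4.19%. The others included Rpl13, Rpl14, Rpl10a, Rpl36a and Rpl8. These shares take each gene's own row without its copies, and shares of summed families were not compared. The Rpl10a row held under 10% of its family's counts. Its copy Rpl10a-ps1 lay between 151 and 193 CPM in the 3 libraries and between 122 and 200 CPM in the other 9.

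In 14 genes the share, though not the CPM, was lower in each of those 3 libraries than in any of the other 9. Rplp0 gave 3.76% to 4.30% against 4.48% to 5.66%. Rps3, a protein of the mRNA entry channel, gave 1.27% to 1.76% against 2.03% to 2.41%, and Rpl7a, a large subunit protein, 1.03% to 1.46% against 1.63% to 2.22%. Rpl3, Rpl4, Rpl6, Rpl7, Rpl11, Rpl19, Rpl23a, Rpl27, Rpl32, Rps7 and Rps9 made up the rest. These too are shares of the gene rows without their copies. The Rpl11 copy Gm10288 lay between 108 and 120 CPM in the 3 libraries and between 92.8 and 157 CPM in the other 9. The longest annotated transcripts had a median of 1260 bases in the 9 genes and 1156.5 in the 14. The 3 libraries include both genotypes, and the part of RNA quality in these differences was not tested.

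**Figure D4:**
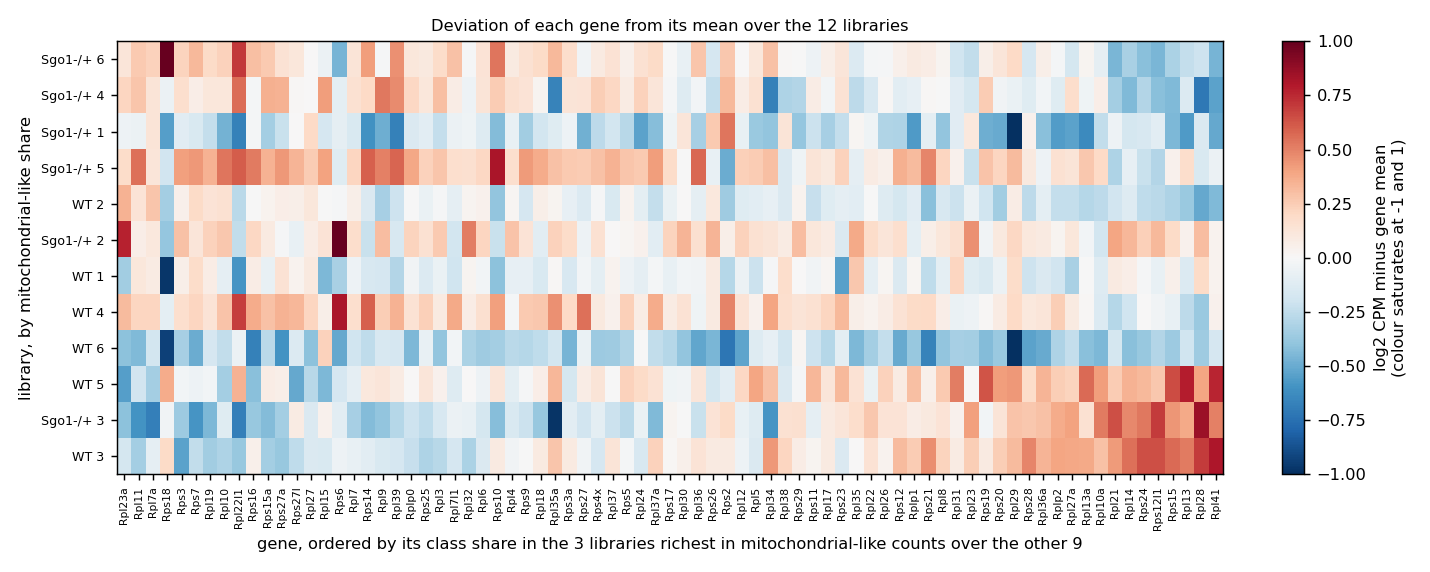
Deviation of 77 tested genes (x axis) from its mean over the 12 libraries (y axis, from the lowest mitochondrial-like share at the top to the highest at the bottom), in log2 CPM with colour limits at -1 and 1. Genes are ordered by their class share in the 3 richest libraries relative to the other 9, from Rpl23a at the left to Rpl41 at the right, so the bottom 3 rows run from blue to red by construction of the order.

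**Figure D5:**
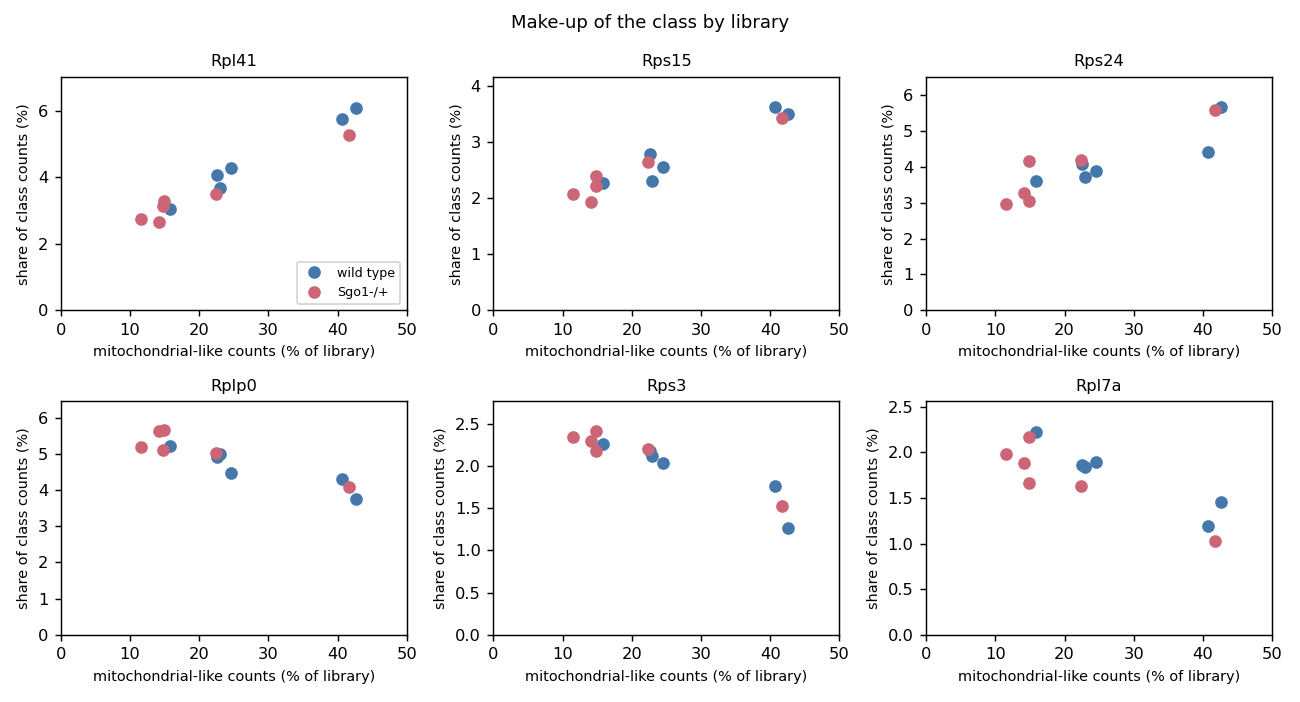
Share of class counts (y axis, %) against the mitochondrial-like share of the library (x axis, %) for 6 genes, with wild type in blue and Sgo1-/+ in red. Rpl41, Rps15 and Rps24 are higher, and Rplp0, Rps3 and Rpl7a lower, in the 3 libraries between 40.7% and 42.6% than in the other 9.

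The names of the count columns carry a suffix in 4 libraries, wild type 1 and 6 with Sgo1-/+ 5 and 6, and the labels do not say what it marks. The class differed in direction between these libraries and the rest. Among the 2 and 2 libraries with the suffix the median log2 change was 0.34, with 67 genes above 0 and 12 below, beside 49.0% of all genes above 0. In these libraries 18 of 79 had an unadjusted edgeR p under 0.05, all higher in Sgo1-/+, beside 5.28% of all genes called higher and 14.0% in either direction. Among the 4 and 4 without it the median was -0.067, with 26 above 0 and 53 below, beside 49.6% of all genes above 0. There 2 of 79, Rpl34 and Rpl35a, had an unadjusted p under 0.05, both lower, beside 2.16% of all genes called lower and 3.98% in either direction. Both rows were lowest in Sgo1-/+ replicates 3 and 4, where the copies Rpl34-ps1 and Rpl35a-ps2 were higher than in any other library. Rps10, a protein of the small subunit head, had a log2 change of 1.06 ± 0.17 (SE) with the suffix and -0.25 without it. Rpl39, a small protein of the exit tunnel, had 0.74 ± 0.15 with it and -0.12 without, and Rps14, a protein of the small subunit platform, 0.71 ± 0.15 with it and -0.37 without. The difference between the sets of libraries was not itself tested. With the suffix the wild type side includes replicate 6, the library in which the class was lowest.

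Genes that make or regulate ribosomes were described from lists, whose counts stand beside 49.0% of all genes tested with a fitted value above 0 and, at an unadjusted edgeR p under 0.05, 4.31% higher and 9.04% in either direction. In the small nucleolar RNP and rRNA processing list 25 of 31 genes had fitted values above 0 in Sgo1-/+, with a median log2 change of 0.19, and 5 were at an unadjusted edgeR p under 0.05, all higher. Fbl, the methyltransferase of box C/D particles, stood at 11.03 ± 1.55 CPM in wild type mucosa and 16.0 ± 1.97 CPM in Sgo1-/+ mucosa (SD, 6 libraries per genotype), a log2 change of 0.53 ± 0.14 (SE; edgeR unadjusted p = 0.0017, adjusted p = 0.491). Nob1, the nuclease that trims the small subunit rRNA, stood at 8.44 ± 1.49 and 11.3 ± 1.07 CPM, a log2 change of 0.42 ± 0.15 (adjusted p = 0.527). Of 13 RNA polymerase I genes 10 were above 0, with a median of 0.078, and 2 were at an unadjusted p under 0.05. The subunit gene Polr1b was at 6.48 ± 1.19 and 9.92 ± 1.28 CPM, a log2 change of 0.62 ± 0.16 (edgeR adjusted p = 0.491), and the initiation factor gene Taf1b was at 0.59 ± 0.27 (adjusted p = 0.548).

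A list of translation factors and other genes known for TOP messages (among the others Npm1, Tpt1, Naca, Btf3, Hnrnpa1 and Vim), in which the motif was not checked here, had 14 of 18 genes above 0 and a median of 0.13, with 0 at an unadjusted edgeR p under 0.05. Npm1, the nucleolar chaperone nucleophosmin, was at 154 ± 24.9 and 187 ± 35.8 CPM, and the initiation factor subunit gene Eif3l at 66.3 ± 15.4 and 82.3 ± 16.4 CPM. Among assembly chaperones and release factors 13 of 16 were above 0, with a median of 0.16 and 1 at an unadjusted p under 0.05, the export receptor gene Xpo1 at 0.29 ± 0.11 (edgeR adjusted p = 0.527), while Sbds, which helps release the joining block on the large subunit, was at -0.20 ± 0.10. Regulators of ribosome supply had 12 of 18 above 0, a median of 0.043 and 0 at an unadjusted p under 0.05, with the La-related RNA-binding protein gene Larp4 at 0.33 ± 0.17 and Trp53, the gene of p53, at 0.40 ± 0.21. The ribosomal proteins of mitochondria, tested in 77 of 80 genes, had 48 above 0, a median of 0.030 and 1 at an unadjusted p under 0.05, Mrpl37 at 0.39 ± 0.15, with Mrps35 at -0.21 ± 0.11. No gene of these lists passed an adjusted p of 0.05 in edgeR. The list medians were all higher in the libraries with the column suffix than in those without it. They were 0.40 against 0.14 for rRNA processing, 0.38 against 0.015 for assembly chaperones and release factors and 0.24 against 0.069 for the TOP list. For RNA polymerase I they were 0.14 against 0.12, for regulators 0.085 against 0.033 and for mitochondrial ribosomal proteins 0.049 against 0.012. The difference between the sets of libraries was not tested.

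Components of the cytosolic ribosome with other symbols did not pass the test either. Rpsa stood at 449 ± 86.9 CPM in wild type mucosa and 452 ± 92.9 CPM in Sgo1-/+ mucosa, and Gnb2l1, which encodes the scaffold RACK1, at 328 ± 71.0 and 382 ± 95.0 CPM. The log2 changes were 0.0097 ± 0.16 for Rpsa, 0.22 ± 0.19 for Gnb2l1, -0.090 ± 0.27 for Fau and 0.011 ± 0.12 for Rpl36al (SE; edgeR adjusted p between 0.738 and 0.989).

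Start sites from RefSeq on GRCm38.p6 were matched for 61 of the 84 genes, each with 250 bases before and 50 after the listed start. At the listed start 32.8% of the 61 had a C, against 16.2% of 27025 genes in the table, and 12 of 61 (19.7%) had a C with at least 4 further C or T bases, against 2.48%. Within 5 bases of the listed start such a run was present in 45.9% of the 61 and 18.3% of all genes. Of 4 motifs searched on both strands, CCGGAA, the core of ETS family sites, was in 49.2% of the 61 windows and 15.3% of all windows of the same length. ATGGCGG, a form of the YY1 site, was in 16.4% and 4.18%, TATAAA in 9.84% and 14.2%, and CACGTG, the E-box that MYC binds, in 8.20% and 7.17%. These are descriptions of listed starts, and a listed start can lie several bases from the one used in colon. Several genes with a run at the listed start (Rpl15 on chr14:18270972-18271001, Rpl35 on chr2:39005117-39005146 and Rps10 on chr17:27635230-27635259, all on the minus strand) and 2 without one there (Rpl41 on chr10:128549154-128549183, minus strand, and Rpl22l1 on chr3:28805493-28805522, plus strand) show the range. In Rpl22l1 such a run does begin within 5 bases of the listed start. Only a run from the listed start itself is in capitals:
Rpl15 start: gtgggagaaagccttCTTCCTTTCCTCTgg
Rpl35 start: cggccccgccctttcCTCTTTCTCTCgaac
Rps10 start: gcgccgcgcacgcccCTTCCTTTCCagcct
Rpl41 start: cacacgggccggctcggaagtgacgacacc
Rpl22l1 start: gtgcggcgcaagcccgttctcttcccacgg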

How the data were processed

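Messenger RNA of colonic mucosa was sequenced on an Illumina MiSeq from TruSeq libraries, per the labels' protocols. The submitters' processing notes name build mm10 and DESeq; for the aligner, the counter and its strand setting nothing is given in these sources. The authors deposited 1 file per sample with 38592 rows and a raw and a normalized column. The deposited raw values are expected counts, of which 69.5% above 0 are not whole numbers (tolerance 0). The deposited normalized values are on a log2 scale. Recomputing it from the raw columns by median-of-ratios scaling, with a floor of 1 and the gene median subtracted, matched 100.0% of values within 0.001, and it was not used for tests.

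Counts were rounded. The 505 rows without an Ensembl identifier, 1.79% to 5.40% of counts, were left out. All genes were fitted with edgeR 4.0.16 (R 4.3.3; glmQLFit, glmQLFTest) by genotype with 6 libraries each, with TMM and filterByExpr (minimum count 10, minimum total 15), which kept 13889 genes. P-values were adjusted by Benjamini-Hochberg over all of them, with a threshold of 0.05. DESeq2 1.42.0, limma-voom (limma 3.58.1), other scalings and filters, a replicate block and subsets of libraries were alternatives. Single log2 CPM values used a prior of 0.25 CPM. Copies were found with blastn 2.17.0 against GENCODE M21 transcripts (80% coverage, 90% identity); adding all of them was chosen after seeing the data. Mitochondrial-like rows were those with 50% coverage and 80% identity to mitochondrial transcripts. The edgeR fit was tested on simulated counts, drawn independently for each gene and library.

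Genes named are the 5 with the smallest p in each direction at a mean of at least 10 counts, the 5 highest and 5 lowest per kb, paralogs with their partners, the stalk genes, the MDM2 binders, genes that move by over 1.5 times and over 0.3 log2 units or change sign by that much without 1 library, the 3 highest and 3 lowest by mean r, and 2 of each list by p. Genes named for their copies, class shares or suffix libraries were chosen after their values were seen. The members and lists were chosen with earlier results of these data known. Some genes that these rules take are not reported here.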

Additional observations from a re-analysis of the deposited data

Results flagged for a closer look

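Library values were compared within each genotype for 77 tested ribosomal protein genes, the 16 tested genes named from the related lists and the class sum on 2 scales. In 12 of these 190 groups of 6 libraries 1 library lay far from the other 5, where chance alone gives about 9.5. Rps18 was at 82.5 CPM in Sgo1-/+ replicate 6, with a gap to the next library of 0.960 of the group's range. Rps6 was at 21.2 CPM in Sgo1-/+ replicate 2 and at 17.1 CPM in wild type replicate 4, with gaps of 0.852 and 0.725. Wild type replicate 4 was also high in Rps27 (41.8 CPM, gap 0.737), Rpl7l1 (40.7 CPM, gap 0.740) and Rps14 (279.9 CPM, gap 0.643). Wild type replicate 6 was low in Rpl29 (56.8 CPM, gap 0.669) and Rpl30 (118.995 CPM, gap 0.634). In that library the Rpl29 copy Gm13841, with 99.4% identity, was at 34.8 CPM. The copy was at 43.5 CPM in Sgo1-/+ replicate 1, where Rpl29 deviated by -0.99 log2 from its mean, and at 0.061 to 1.13 CPM in the other libraries. Whether reads moved between the rows of Rpl29 and Gm13841 was not tested. Among Sgo1-/+ libraries replicate 3 was low in Rpl7a (143.8 CPM, gap 0.825), as was replicate 1 in Rpl17 (49.3 CPM, gap 0.671). Replicate 2 was high in Rpl32 (388 CPM, gap 0.645) and replicate 5 in Rps21 (128 CPM, gap 0.716). The rows of Rps18, Rps6 and Rps27 hold 16.0%, 4.59% and 20.0% of the counts of their families of near-identical copies, and the Rpl7l1 row 97.4%.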

How the results depend on the processing

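The count of 0 genes called by edgeR became 30 with DESeq2, none of them a ribosomal protein gene. The number of ribosomal protein genes at an unadjusted p under 0.05, 0 in the reported fit, was 16 with total counts in place of TMM factors, 1 without the filter, 18 in the libraries with the column suffix, 2 in those without it and 0 to 2 when each library was left out in turn. Those were Rps18 and Rpl3 without Sgo1-/+ replicate 1, Rps18 and Rpl41 without replicate 3, Rps18 alone without replicates 2, 4 or 5, and Rps2 without wild type replicate 4. The median log2 change of 0.073 was 0.40 with total counts, a scale on which the median of all genes was 0.31, 0.34 with the suffix, -0.067 without it and 0.020 to 0.12 with 1 library left out. The difference in summed CPM of 3588 was 318 with TMM factors and 3016 to 4640 with 1 library left out. With total counts the values of Rpl21 (0.29), Rpl34 (0.11), Rpl35a (0.15), Rpl38 (0.29), Rplp1 (0.26), Rplp2 (0.29), Rps12l1 (0.26), Rps15 (0.15) and Rps27 (0.21) turned positive. Without the filter Rpl21 (0.031) and Rpl38 (0.0023) did, as did Rpl21 (0.014) with named pseudogene rows added and Rps27 (0.055) with all copies added. With 1 library left out, log2 changes crossed 0 in Rpl21 (-0.16 to 0.096), Rpl38 (-0.066 to 0.037), Rplp2 (-0.13 to 0.053), Rplp1 (-0.16 to 0.016), Rps12l1 (-0.23 to 0.098), Rps27 (-0.18 to 0.00032) and Rps6 (-0.20 to 0.35). Beyond the scaling and the libraries used, which the alternatives themselves change, the cause was not tested. Of the single-gene values 566 kept their direction and side of the threshold and 34 turned.

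The labels' replicate numbers were not shown to pair the samples: same-numbered libraries correlated between -0.30 and 0.45 in their deviations, and 1 of 6 wild type libraries was nearest to its own number. With the numbers as a replicate block edgeR called 0 genes, 0 ribosomal protein genes were at an unadjusted p under 0.05 and their median log2 change was 0.075. Between 5414437 and 9937114 counts per library limit the least counted genes, such as Rps13 and Rpl3l.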
